A study of Homo sapiens with 6 samples.

Results

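The genes described here are 36 genes of the mesenchymal programme and of the non-collagen extracellular matrix, chosen by name from the 19655 genes of the deposited count table, where all 36 have an entry. They encode intermediate filaments (VIM, SYNM), mesenchymal cadherins (CDH2, CDH11), actin-bound contractile proteins and the calcium-binding protein S100A4, fibronectin and elastic-fibre proteins, matricellular proteins, proteoglycans, lysyl oxidases, matrix proteases with their inhibitors, and the surface proteins PDGFRA, PDGFRB, THY1 and ENG. RNA sequencing was done in 6 libraries labelled HCT116, the name of an established human colorectal carcinoma cell line. The cells were grown in DMEM with foetal bovine serum. In the 3 control libraries (NC) the genotype label is control, and in the other 3 (ASO) it is SNORA67 knockdown, made by transfecting an antisense oligonucleotide against the small nucleolar RNA SNORA67. The sources used here do not state what the control cells received, nor the sequence, dose and exposure time of the oligonucleotide. Whether replicates are separate cultures is not labelled, and p-values here reflect only library-to-library spread, which may be technical.

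Mesenchymal cells attach to and remodel a matrix that they secrete. Vimentin filaments and bundled actin carry load inside the cell, fibronectin and fibrillins form the first fibres outside it, lysyl oxidases crosslink elastin and collagen, and metalloproteinases cut these proteins under the control of TIMP inhibitors. In a colon tumour most of this RNA usually comes from fibroblasts and pericytes, and carcinoma cells can switch on part of it during epithelial-mesenchymal transition. TGF-beta and the actin-regulated factor SRF are well-known inducers of many of these genes.

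Column totals ran from 50728524 to 53715905 estimated counts in NC and from 49136502 to 54905215 in ASO. Levels are given as CPM, counts scaled to library size, after TMM scaling, with the SD over n = 3 libraries, and changes are log2 fold changes of ASO over NC from edgeR, called at a Benjamini-Hochberg adjusted p below 0.05 over the 14062 genes tested. SNORA67 has no entry in the deposited count table, so its knockdown could not be measured here. Its host gene EIF4A1 stood at 1489.8, 1543 and 1600.5 CPM in NC, against 651, 564 and 636 CPM in ASO, a fall of 2.50-fold (edgeR adjusted p = 1.49e-05). The labelled epithelial identity was checked against 18 colon epithelial markers, of which 6 reached 1 CPM on average in NC. The keratins of simple epithelium reached 1360.1 ± 94.3 CPM (KRT8) and 712 ± 55.8 CPM (KRT18) in NC, while the adhesion genes EPCAM and CDH1 lay at 4.37 ± 1.13 and 1.06 ± 0.229 CPM. The intestinal transcription factor CDX2 and the brush-border gene VIL1 lay at 0.311 ± 0.165 and 0.0674 ± 0.117 CPM, near or below the detection limit of 12 counts per library, which is a mean of 0.228 CPM in NC. TFF3, a goblet cell gene, had 0 counts in all 6 libraries, so these intestinal markers were absent or near the detection limit in NC. In ASO, VIL1 stood at 8.88 ± 6.97 CPM. The epithelial claudin genes CLDN4 and CLDN7, at 4.60 ± 1.22 and 7.84 ± 0.820 CPM in NC, were above the limit, as was EPCAM. Of the 18 markers, 2 (KRT8 and KRT18) reached 10 CPM on average in NC. The mesenchymal or fibroblast genes VIM, THY1, COL1A1 and PDGFRB lay at 1201, 192, 160 and 101 CPM in NC. CDH11, POSTN and PDGFRA had 0 counts. Apart from the keratins, NC thus showed little of the labelled epithelial identity. Whether the cells are the labelled line was not tested.

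The promoters of the 2 risen and the 2 fallen members with the largest change among those with an entry in the RefSeq promoter table (GRCh38.p14) are shown first, because these 4 genes are among the members that differ most between the groups. THBS1 and MMP14 rose and SYNM and PDGFRB fell. Each line holds the 250 bases before a single RefSeq start per gene, and capitals mark GC boxes (GGGCGG on either strand, the short motif read by SP1 family factors). For SYNM this start lies inside the gene span of the deposited table, which begins at base 99098217.

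THBS1 (chr15:39580829-39581078, plus strand): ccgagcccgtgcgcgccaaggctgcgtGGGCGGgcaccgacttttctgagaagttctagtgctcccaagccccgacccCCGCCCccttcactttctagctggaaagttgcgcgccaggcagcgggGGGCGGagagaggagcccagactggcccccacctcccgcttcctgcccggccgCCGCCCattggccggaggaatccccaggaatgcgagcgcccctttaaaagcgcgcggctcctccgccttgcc

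MMP14 (chr14:22836335-22836584, plus strand): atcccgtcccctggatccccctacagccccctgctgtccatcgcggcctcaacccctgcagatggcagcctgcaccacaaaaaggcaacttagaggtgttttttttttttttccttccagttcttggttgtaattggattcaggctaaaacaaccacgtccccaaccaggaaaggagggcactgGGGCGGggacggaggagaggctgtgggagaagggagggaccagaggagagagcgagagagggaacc

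SYNM (chr15:99104830-99105079, plus strand): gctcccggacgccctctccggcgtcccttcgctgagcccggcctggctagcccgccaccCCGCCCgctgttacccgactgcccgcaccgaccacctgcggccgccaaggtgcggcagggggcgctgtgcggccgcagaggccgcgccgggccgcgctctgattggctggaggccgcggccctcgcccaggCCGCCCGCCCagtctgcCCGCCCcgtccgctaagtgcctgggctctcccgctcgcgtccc

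PDGFRB (chr5:150155846-150156095, minus strand): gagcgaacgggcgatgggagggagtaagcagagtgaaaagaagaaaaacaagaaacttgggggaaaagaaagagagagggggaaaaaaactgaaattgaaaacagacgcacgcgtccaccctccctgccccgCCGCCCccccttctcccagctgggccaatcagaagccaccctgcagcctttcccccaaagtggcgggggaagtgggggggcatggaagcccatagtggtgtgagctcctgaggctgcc

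Of the 36 members, 26 with an entry in that table were searched in these 250 bases for 5 motifs. Members on chromosome 8, here LOXL2, were left out of the search. A GC box was found in all 6 risen members searched (TPM1, TPM2, FN1, THBS1, LOX and MMP14), in 3 of 5 that fell (SYNM, FBLN5 and PDGFRB) and in 8 of 11 that were not called, against 65.3% of the 11154 promoters of tested genes. An AP-1 site (TGANTCA, which reads the same on both strands), a CArG box, the binding element of SRF, and a CAGA box (AGCCAGAC, both strands, read by SMAD proteins) were found in 0 of the 22 tested members searched. Among all promoters these 3 motifs occurred in 4.115%, 1.03% and 1.13%. A TATA box (TATAAA, on the strand of the gene, 4.115% of all promoters) was found in S100A4, 31 bases before its start, and in THBS2 and POSTN, both 29 bases before theirs. POSTN and PDGFRA, which had 0 counts throughout, each held a match to TGANTCA, in which N is any base. The match read TGAGTCA in POSTN and TGAATCA in PDGFRA. THBS2 held a CAGA box. At such low shares, finding none in these members cannot tell them from other genes. A single start per gene was searched, and some, such as those of SYNM, TPM1 and S100A4, lie inside the gene span of the deposited table. Other starts were not searched, and the risen members TAGLN, MMP2 and LOXL2, as well as MYL9, were not among the genes searched. These matches describe letters in a short window and not binding.

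A large part of the group was expressed in the control cells. On average in NC, 19 of the 36 members lay at 100 CPM or more, 5 between 10 and 100 CPM, 6 between 1 and 10 CPM and 6 below 1 CPM. Per kilobase of the principal transcript of GENCODE 29, the highest level in NC was that of S100A4 with 1288.8 ± 67.9 CPM per kb, followed by VIM with 563 ± 38.5, TPM2 with 227 ± 10.3, SPARC with 185 ± 2.28, TIMP1 with 169 ± 17.01, FBLN1 with 149 ± 13.002 and TPM1 with 99.04 ± 3.53 CPM per kb. The order from S100A4 to SPARC was separated by more than these SDs, whereas SPARC and TIMP1 differed by less than the SD of TIMP1, and TIMP1 and FBLN1 by little more than either SD. At the other end CDH11, POSTN and PDGFRA had 0 counts in all 6 libraries, VCAN had 4 counts in 1 ASO library and 0 in the rest, and THBS2 had 10, 12 and 0 counts in NC and 0 in ASO. These 5 genes encode a mesenchymal cadherin, a matricellular protein, a PDGF receptor, a large proteoglycan and a second thrombospondin, and none was over the 12-count detection limit in any library. The limit covers counting error only.

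**Figure D1:**
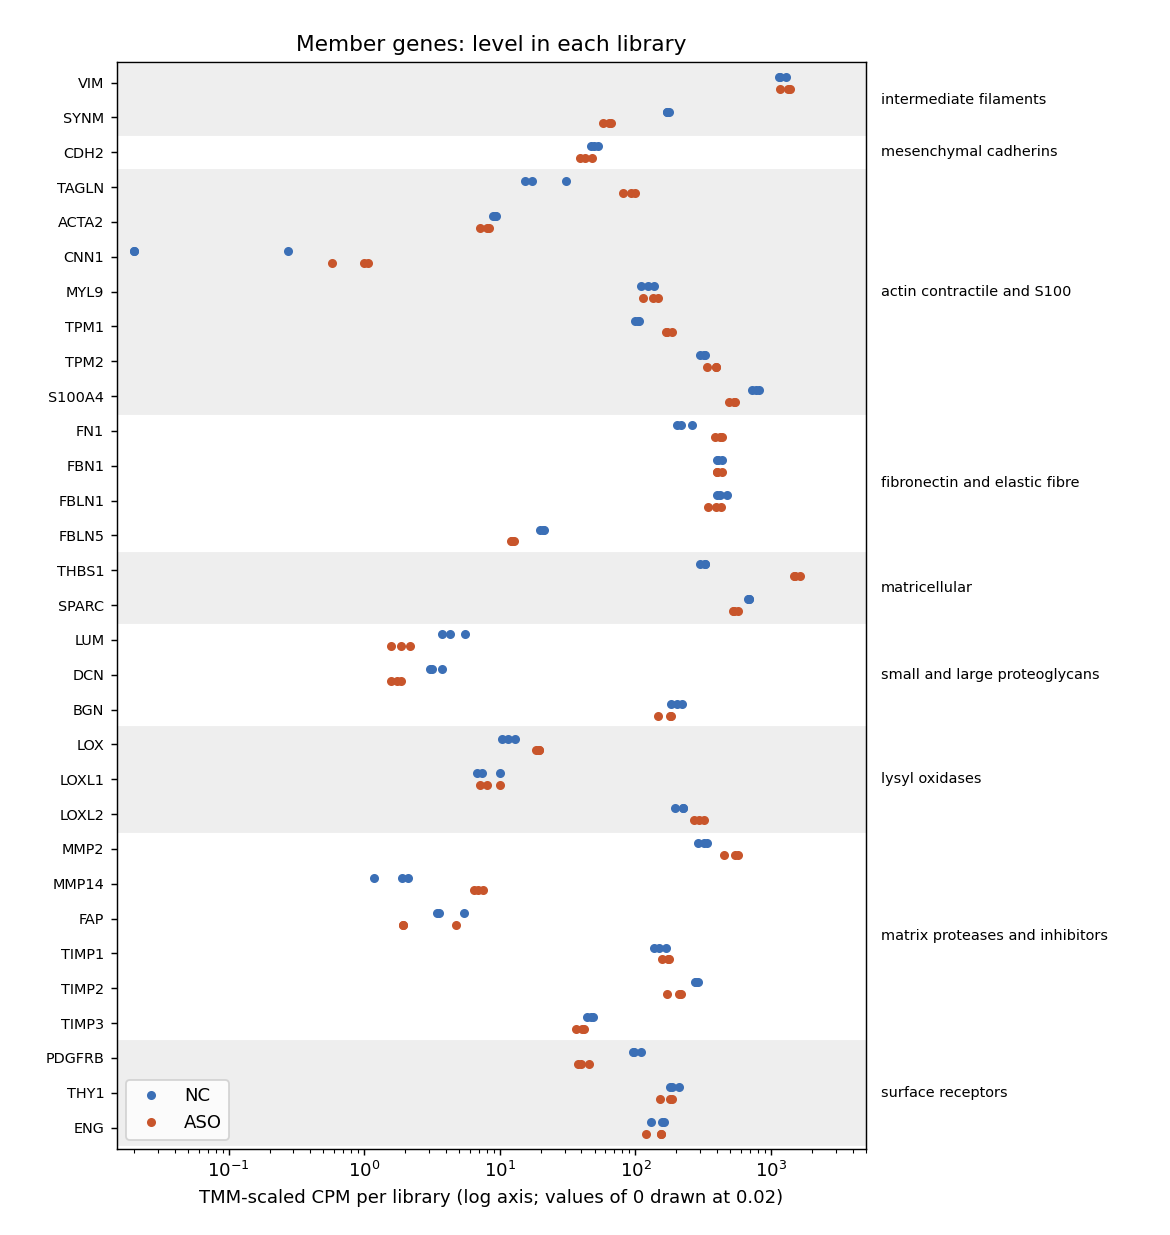
Level of the 31 tested members in each library, in TMM-scaled CPM on a log axis, with 1 point per library (blue NC, orange ASO) and genes grouped by role. THBS1, TAGLN and MMP14 lie clearly to the right in ASO, SYNM and PDGFRB to the left, and VIM, FBN1 and ENG overlap.

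After the oligonucleotide the group split into rises and falls, as did all genes tested. Of the 36 members, 31 passed the filter on low counts and were tested, and 9 of them rose, 8 fell and 14 were not called. Those 9 and 8 are 29.03% and 25.8% of the members tested, beside 26.8% and 19.1% of all genes tested. For both directions together the share was 54.8% of the members and 46% of all genes. CNN1 passed the filter through its ASO libraries, so the count over tested members is not a count over all members. The median log2 fold change of the tested members was -0.07 and that of all genes tested 0.01, and the means were 0.16 and 0.55, so that median and mean of the members had opposite signs. Changes of at least 2-fold were made up of 3 rises (THBS1, TAGLN and MMP14) and 3 falls (SYNM, PDGFRB and LUM), beside 16.9% and 3.9% of all genes. For 21 of the 31 members tested, NC and ASO libraries did not overlap, beside 57.6% of all genes, and all 17 called members were among them. In such bulk RNA, fewer cells with a transcript and less of it per cell cannot be told apart. The members together took 0.649%, 0.635% and 0.690% of all counts in NC, against 0.806%, 0.736% and 0.781% in ASO. Without THBS1 the shares were 0.616%, 0.605% and 0.657% against 0.645%, 0.587% and 0.632%, and the groups overlapped.

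The principal transcripts of the members span 36.3% GC (LUM) to 66.95% GC (LOXL1). With an offset per library that removes trends with GC content and length, 9 members rose and 12 fell. FBLN1, BGN, THY1, ENG and TIMP3 were then called lower, and the call of DCN was lost. The part of GC content in the changes of single members was not tested beyond these fits.

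**Figure D2:**
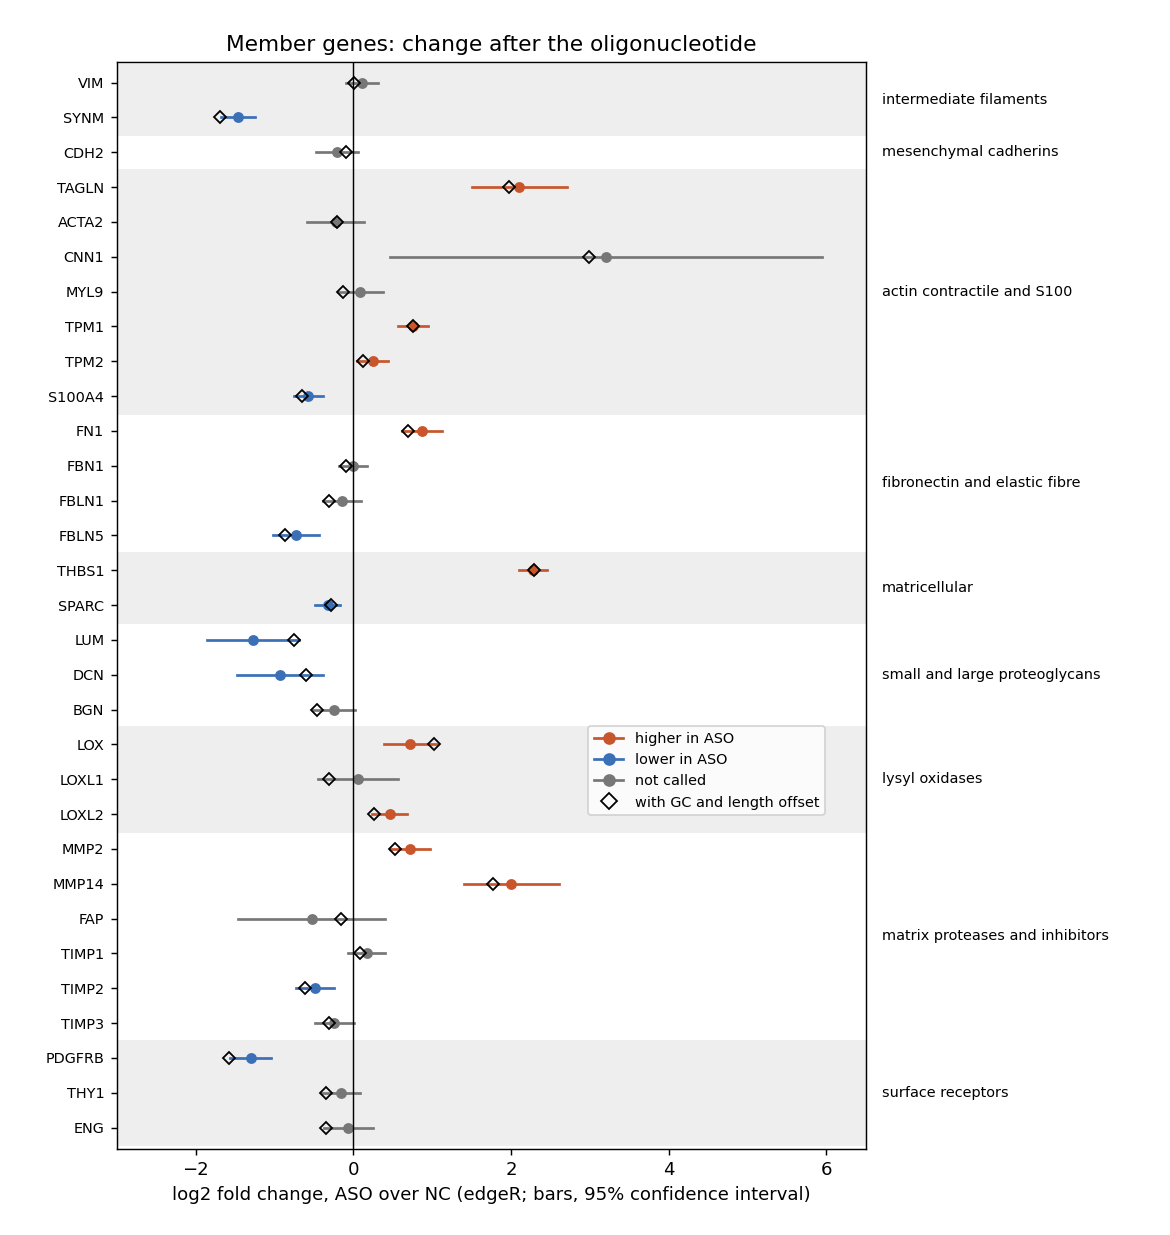
Fitted log2 fold change of ASO over NC for the 31 tested members, grouped by role, with filled points for the edgeR fit, bars for its 95% confidence interval and open diamonds for the fit with a GC and length offset. The 9 risen members are orange, the 8 fallen blue and the 14 not called grey, and the interval of CNN1 is the widest.

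Among the intermediate filament genes, SYNM fell and VIM was not called. SYNM encodes synemin, a large filament protein that needs vimentin or desmin to assemble and links filaments to adhesion sites. It stood at 178, 170.5 and 169.5 CPM in NC, against 66.0, 57.4 and 64.1 CPM in ASO. All ASO libraries lay far below all NC libraries, a fall of 2.76-fold (log2 fold change -1.47, SE 0.09, edgeR adjusted p = 1.73e-05). VIM, its partner and the standard mesenchymal marker, was at 1147, 1161 and 1296 CPM in NC, against 1375, 1171 and 1323 CPM in ASO. These ranges overlapped, and the difference of 0.10 on the log2 scale had a 95% confidence interval of -0.10 to 0.31 (edgeR adjusted p = 0.370). Within each library the SYNM count was 0.155, 0.147 and 0.131 times that of VIM in NC and 0.048, 0.049 and 0.0484 times in ASO, a ratio that does not depend on scaling between libraries. For each of these within-library ratios the exact two-sided permutation test gives p = 0.1, the smallest it can give with 3 against 3.

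CDH2, the N-cadherin gene, is the member of the cadherin pair that was measurable. It lay at 46.7, 49.7 and 52.95 CPM in NC, against 42.6, 47.7 and 39.2 CPM in ASO, with overlapping groups (log2 fold change -0.21, 95% interval -0.47 to 0.06, edgeR adjusted p = 0.178). CDH1, the epithelial cadherin, was at 1.94, 1.68 and 1.80 CPM in ASO (edgeR adjusted p = 0.0862) and was not called either.

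Of the 7 actin-linked and S100 genes tested, 3 rose (TAGLN, TPM1 and TPM2), S100A4 fell and 3 were not called. TAGLN, which encodes the actin-bundling protein transgelin, rose most, from 15.4, 17.4 and 30.8 CPM to 99.97, 81.6 and 91.96 CPM. NC replicate 3 stood above the other NC libraries but well below every ASO library. The rise was 4.30-fold (log2 fold change 2.11, SE 0.26, edgeR adjusted p = 0.000568). TPM1, an actin-stabilising tropomyosin, rose 1.69-fold, from 105, 107 and 99.8 CPM to 169, 172 and 185 CPM (edgeR adjusted p = 0.000294). The second tropomyosin, TPM2, went from 318, 300.35 and 329 CPM to 389, 339.6 and 394 CPM, a difference of 1.19-fold whose adjusted p of 0.0472 in edgeR was just under the threshold and whose call was lost under 7 of 17 alternatives. Its log2 fold change of 0.25 was 0.12 with the GC and length offset. In counts per library, TPM1 made up 0.330 ± 0.0264 of TPM2 in NC and 0.470 ± 0.0365 in ASO.

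The smooth muscle actin gene ACTA2, the most used myofibroblast marker, was low and not called, at 8.87, 9.17 and 9.35 CPM in NC versus 8.29, 8.06 and 7.08 CPM in ASO. The groups did not overlap, but the 95% interval of the log2 fold change ran from -0.58 to 0.13 (edgeR adjusted p = 0.270). MYL9, the regulatory light chain of non-muscle and smooth muscle myosin, lay at 125, 109.9 and 136 CPM in NC versus 147, 113 and 134 CPM in ASO (edgeR adjusted p = 0.596). TAGLN counts were 0.123, 0.158 and 0.227 times those of MYL9 in NC and 0.682, 0.721 and 0.685 times in ASO. CNN1, the smooth muscle calponin gene, had 0, 15 and 0 counts in NC and 57, 29 and 50 in ASO. Its adjusted p was 0.0568 in edgeR, and without NC replicate 2, the only control library with counts, it was called (edgeR adjusted p = 0.00522).

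S100A4, a calcium-binding protein that binds non-muscle myosin and was first known as a metastasis- and fibroblast-associated gene, fell. Its levels were 730, 779 and 811 CPM in NC versus 539, 487 and 534 CPM in ASO. The fall of 1.49-fold (log2 fold change -0.57, SE 0.08, edgeR adjusted p = 0.000857) left it the member with the highest level per kilobase in both groups, with 867 CPM per kb in ASO.

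TAGLN shares 446 exon bases with PCSK7 and ACTA2 shares 380 with FAS, each on the opposite strand. Other members also share exon bases with opposite-strand genes. Antisense genes without an entry in the deposited table cover up to 25.92% of the exon bases of SYNM. Such shares reach 17.34% in ACTA2, 16.08% in TPM1 and 12.43% in VIM. The sources used here do not state whether counting used strand, so reads from these bases cannot be assigned. PCSK7 stood at 57.4 ± 2.14 CPM in NC versus 71.5 ± 11.0 CPM in ASO (edgeR adjusted p = 0.0785). FAS was at 23.2 ± 2.14 and 17.6 ± 1.91 CPM (edgeR adjusted p = 0.0526).

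Fibronectin and the elastic fibre genes went different ways. FN1, the glycoprotein that cells assemble into fibrils through integrin alpha5 beta1, rose from 215, 202 and 259.8 CPM to 436, 385 and 418 CPM. Every ASO library exceeded every NC library, and the rise was 1.83-fold (log2 fold change 0.87, SE 0.11, edgeR adjusted p = 0.000604). ITGA5, which encodes the alpha5 chain of that receptor, rose 2.12-fold from 565 ± 39.6 CPM (edgeR adjusted p = 0.000101); it is named for its link to FN1, a choice made after its values were seen. FBN1, the main fibrillin of microfibrils, was almost the same in both groups, at 400.1, 403 and 434 CPM in NC versus 433, 399 and 400.2 CPM in ASO, with a 95% interval of -0.18 to 0.17 on the log2 scale. FN1 counts were thus 0.538, 0.502 and 0.598 times those of FBN1 in NC and 1.01, 0.963 and 1.04 times in ASO.

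FBLN5, a fibulin that places elastin on microfibrils, fell from 20.8, 21.3 and 19.65 CPM to 12.7, 12.4 and 12.1 CPM. The libraries within each group lay close together, and the fall was 1.66-fold (edgeR adjusted p = 0.00258). FBLN1, a fibulin of basement membranes and elastic fibres, was higher per kilobase (149 ± 13.002 against 9.69 ± 0.392 CPM per kb for FBLN5 in NC) and was not called, at 420.2, 398 and 472 CPM against 427, 345 and 391 CPM (edgeR adjusted p = 0.270).

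Of the matricellular genes, which encode secreted proteins that tune cell-matrix contact, THBS1 rose and SPARC fell. THBS1 encodes thrombospondin-1, an adhesive glycoprotein that can activate latent TGF-beta and restrains blood vessel growth. It lay at 325, 301 and 328 CPM in NC, against 1644, 1470.3 and 1509.5 CPM in ASO, with the lowest ASO library far above every NC library. The rise was 4.85-fold (log2 fold change 2.28, SE 0.08, edgeR adjusted p = 1.32e-06), the smallest adjusted p among the members. Per kilobase it moved from rank 15 to rank 4 among the members, at 198 CPM per kb in ASO. SPARC, a collagen-binding glycoprotein also called osteonectin, fell from 687, 676 and 692 CPM to 574, 526 and 537 CPM, a fall of 1.26-fold (edgeR adjusted p = 0.00611). The THBS1 count was 0.472, 0.445 and 0.474 times that of SPARC in NC and 2.86, 2.79 and 2.81 times in ASO, so the counts of THBS1 were the smaller in every NC library and the larger in every ASO library. Per kilobase the levels were 40.9 ± 1.91 for THBS1 and 185 ± 2.28 for SPARC in NC and 198 and 147 CPM per kb in ASO.

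**Figure D3:**
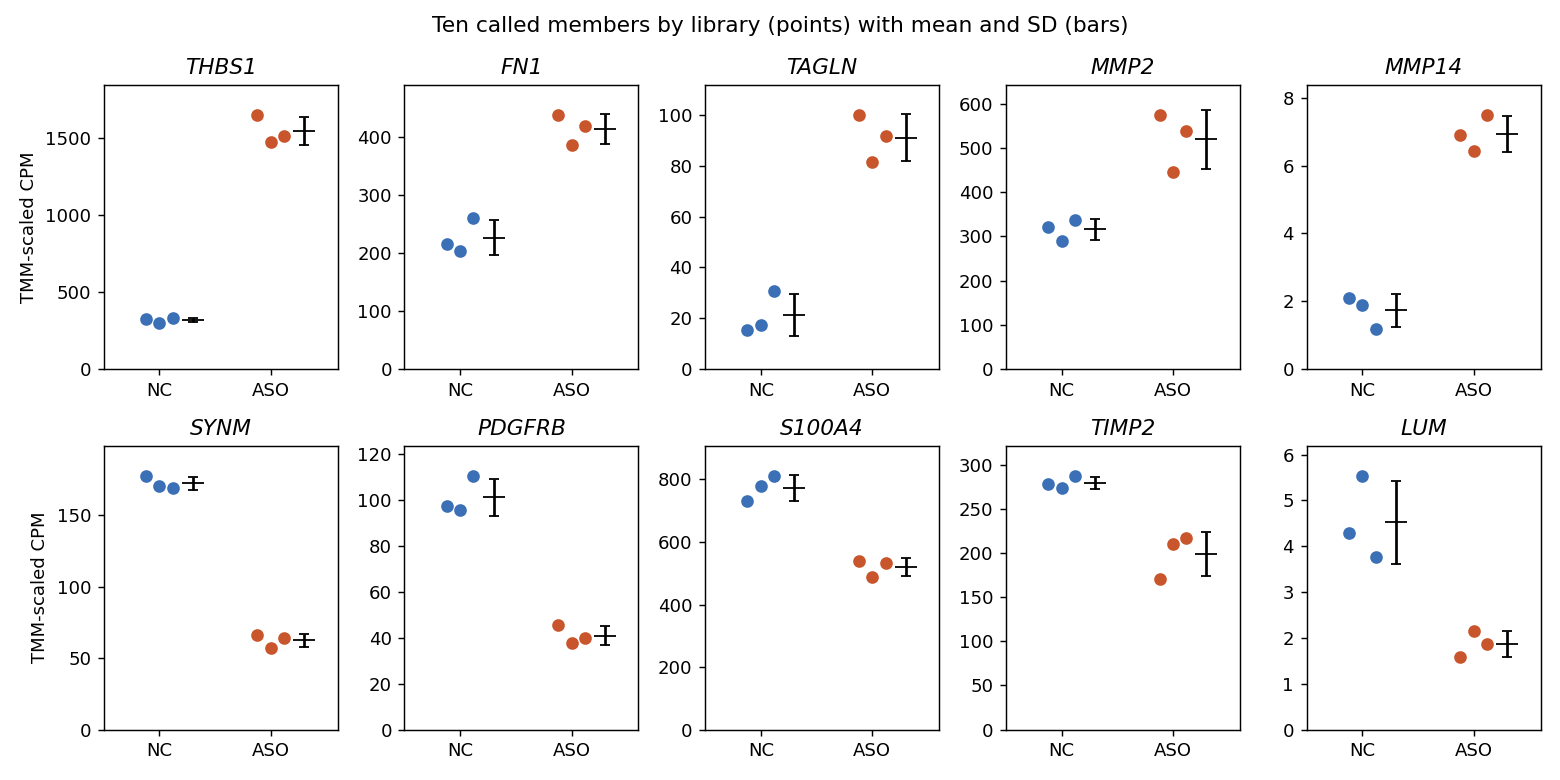
TMM-scaled CPM of 10 called members in each library (points) with the mean and SD of each group (black), on linear axes that start at 0. The upper row holds 5 risen members and the lower row 5 fallen ones, and in no panel do the points of NC and ASO overlap.

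The small leucine-rich proteoglycans LUM and DCN, which bind collagen fibrils and are typical of fibroblasts, were low in NC and lower in ASO. LUM (chromosome 12, 91102629 to 91111494 in the deposited table, hg38 per the submitters' processing notes) was at 4.28, 5.53 and 3.76 CPM in NC versus 1.58, 2.16 and 1.86 CPM in ASO, a fall of 2.42-fold (edgeR adjusted p = 0.00494). DCN, its neighbour (chromosome 12, 91140484 to 91182824), was at 3.04, 3.16 and 3.72 CPM and 1.88, 1.58 and 1.74 CPM, a fall of 1.91-fold (edgeR adjusted p = 0.0142). Groups did not overlap for either gene. Their counts were small, 190 to 301 for LUM and 161 to 188 for DCN per NC library. They have the lowest GC content of the tested members, 36.3% and 38.1%, and with the GC and length offset the log2 fold changes were -0.75 (edgeR adjusted p = 0.0123) and -0.60 (edgeR adjusted p = 0.117). BGN, the related proteoglycan biglycan, was higher per kilobase (83.7 ± 7.44 CPM per kb in NC, against 1.505 ± 0.302 for LUM) and not called, at 201, 183 and 219 CPM against 181, 146 and 182 CPM (log2 fold change -0.24, edgeR adjusted p = 0.117), but with the offset it was called at -0.47 (edgeR adjusted p = 0.000125).

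Lysyl oxidases start the crosslinking of collagen and elastin by oxidising lysine side chains. LOX rose from 12.95, 10.3 and 11.6 CPM to 19.5, 19.6 and 18.4 CPM, or 1.65-fold (edgeR adjusted p = 0.00494). LOXL2, which had the highest level per kilobase of the 3 (60.5 ± 4.87 CPM per kb in NC), rose from 223, 195 and 226 CPM to 318, 272 and 297 CPM, or 1.38-fold (edgeR adjusted p = 0.00602), and its log2 fold change of 0.46 was 0.26 with the GC and length offset. For both genes the lowest ASO library exceeded the highest NC library. LOXL1, which acts mainly on elastin, overlapped at 7.42, 6.74 and 10.1 CPM against 9.96, 7.14 and 8.06 CPM (edgeR adjusted p = 0.855).

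Of the matrix proteases, MMP2 and MMP14 rose and FAP was not called. MMP2, gelatinase A, went from 321, 289 and 337 CPM to 574, 446 and 538 CPM, a rise of 1.64-fold (log2 fold change 0.72, SE 0.11, edgeR adjusted p = 0.00157). MMP14, the membrane-bound protease that activates the MMP2 precursor, was at 2.09, 1.89 and 1.19 CPM in NC versus 6.89, 6.42 and 7.48 CPM in ASO. It rose 4.01-fold (log2 fold change 2.00, SE 0.26, edgeR adjusted p = 0.000692), but from only 60 to 111 counts per NC library. FAP, a serine protease used as a marker of activated fibroblasts, lay at 3.59, 5.40 and 3.45 CPM in NC versus 1.92, 4.76 and 1.94 CPM in ASO. ASO replicate 2 stood within the NC range and the other ASO libraries below it, and without that library FAP was called lower, by -1.11 on the log2 scale (edgeR adjusted p = 0.021).

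Of the 3 inhibitors of metalloproteinases, TIMP2 fell. At the cell surface TIMP2 forms the complex in which MMP14 activates the MMP2 precursor, and in excess it blocks MMP14. It went from 277, 273 and 287 CPM to 170.5, 210.2 and 217 CPM, a fall of 1.40-fold (edgeR adjusted p = 0.0068). ASO replicate 1 was the lowest library. The MMP2 count was 1.16, 1.06 and 1.17 times that of TIMP2 in NC and 3.37, 2.12 and 2.48 times in ASO. CEP295NL, which shares 198 exon bases with TIMP2 on the same strand, was at 0.944 ± 0.530 CPM in NC versus 5.36 ± 0.898 CPM in ASO. TIMP1 (148, 137 and 167 CPM against 178, 157 and 174 CPM) overlapped between groups (edgeR adjusted p = 0.205). TIMP3, an inhibitor that stays bound to the matrix, did not overlap, at 48.9, 47.2 and 43.7 CPM against 36.4, 41.5 and 40.1 CPM. Its log2 fold change of -0.24 was not called (edgeR adjusted p = 0.0971), and with the GC and length offset it was -0.31 (edgeR adjusted p = 0.0131).

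The receptor PDGFRB, which marks pericytes and fibroblasts and binds PDGF-B, fell from 97.4, 95.4 and 110.3 CPM to 45.4, 37.6 and 39.95 CPM. The groups lay far apart, and the fall was 2.47-fold (log2 fold change -1.30, SE 0.11, edgeR adjusted p = 9.27e-05). Its relative PDGFRA was not detected. THY1, a GPI-anchored surface protein of fibroblasts, lay at 187, 180.1 and 208 CPM in NC versus 178, 151 and 186 CPM in ASO (edgeR adjusted p = 0.254). ENG, endoglin, a TGF-beta co-receptor best known from endothelium, lay at 157, 129.6 and 162 CPM against 154, 119 and 154.9 CPM (edgeR adjusted p = 0.710). Both were called lower with the GC and length offset, each by -0.35 on the log2 scale.

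Further lists of matrix and cytoskeleton genes held more rises than falls, as did all genes tested (26.8% and 19.1%). Genes at or near 0 in NC, such as LAMA1, INHBA and LRRC32, passed the filter through their ASO libraries, which adds to the rises. Over the whole deposited table, every ASO library also held more genes with any count than every NC library. Of 25 tested TGF-beta pathway genes (26 listed) 16 rose and 3 fell (median log2 fold change 0.90). INHBA, the activin A subunit, and LRRC32, which anchors latent TGF-beta on the cell surface, had 0 counts in every NC library and reached 1.99 ± 0.452 and 1.80 ± 0.832 CPM in ASO, at least 8.73-fold and at least 7.89-fold higher against the 12-count limit per library. The ligand TGFB3, the co-receptor TGFBR3 and the latent complex protein LTBP1 fell 1.36-fold, 1.56-fold and 1.74-fold.

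The further actin cytoskeleton and SRF target genes, all 29 of them tested, counted 13 rises and 4 falls (median 0.25). MYH11, the smooth muscle myosin heavy chain gene, rose from 0.524 ± 0.0662 to 3.68 ± 0.429 CPM. LMOD1 and TAGLN3 were below the limit on average in NC, against 2.79 ± 0.364 and 3.33 ± 0.369 CPM in ASO. CALD1, MYH10 and PALLD, abundant actin- and myosin-associated genes, fell 1.53-fold, 1.52-fold and 1.49-fold. Integrin genes were made up of 8 rises and 0 falls in edgeR among 14 tested of 18 listed (median 1.05), with 0 falls at an unadjusted p under 0.05 and 0 falls by DESeq2 and limma-voom, and 1 fall with the GC and length offset. ITGA10 and ITGA11, both collagen receptor chains, rose 17.1-fold and 7.27-fold from under 1 CPM, and ITGB3 rose 3.72-fold from 3.10 ± 0.963 CPM.

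Laminin and basement membrane genes, 15 of 15 tested, held 8 rises and 1 fall (median 0.34), or 5 rises and 4 falls with the GC and length offset. LAMB3, a chain of the epithelial laminin-332, rose 4.28-fold from 118 ± 6.61 to 503 ± 66.5 CPM and LAMA2 3.14-fold from 1.26 ± 0.439 CPM. LAMA1 had 0 counts in NC and lay at 1.34 ± 0.260 CPM in ASO, at least 5.88-fold higher. LAMA4 fell 1.24-fold (edgeR adjusted p = 0.0421), a call that was lost under RLE scaling, with counts divided by 4 and in 5 of 6 fits with 1 library left out.

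Other metalloproteinase, plasminogen system and inhibitor genes split into 6 rises and 4 falls among 21 tested of 23 listed (median 0.15), and into 6 rises and 7 falls with the GC and length offset. PLAU, the urokinase gene, rose 5.96-fold from 113 ± 8.01 to 676 ± 45.0 CPM and its receptor PLAUR 2.66-fold, while MMP3 reached 1.498 ± 0.871 CPM from below the detection limit. RECK, a membrane-anchored inhibitor of metalloproteinases, fell 2.55-fold, MMP16 fell 2.83-fold and ADAMTS1 fell 1.53-fold. Further matrix glycoprotein and crosslinking genes held 6 rises and 3 falls among 22 tested of 32 listed (median 0.62), or 5 and 5 with the offset. EFEMP2, the fibulin-4 gene, rose 22.2-fold from 1.20 ± 0.0781 to 26.6 ± 5.54 CPM, the transglutaminase gene TGM2 2.87-fold from 306 ± 11.8 CPM and ECM1 1.96-fold. FBN2, the second fibrillin gene, fell 1.99-fold from 78.1 ± 0.475 CPM, and LTBP1, also on the TGF-beta list, and PXDN fell as well.

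**Figure D4:**
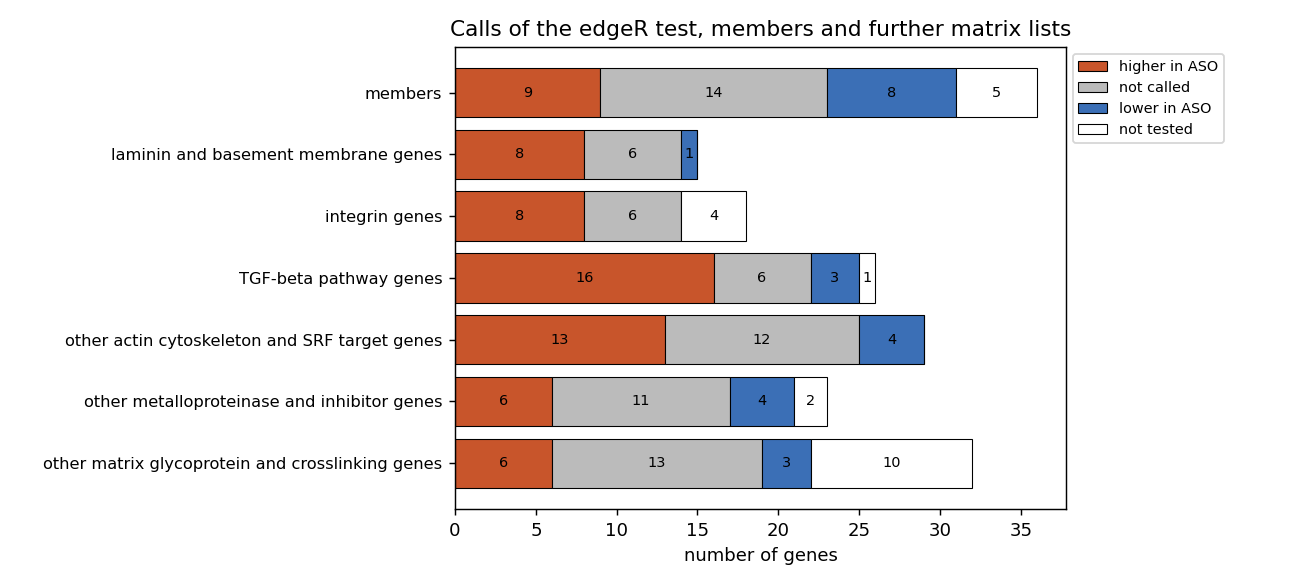
Number of genes called higher, not called, called lower and not tested by edgeR (adjusted p below 0.05) among the members and in 6 further lists of matrix and cytoskeleton genes. The members hold 9 rises and 8 falls, beside 16 rises and 3 falls among TGF-beta pathway genes.

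Markers of cell types that make these RNAs in tissue were compared over whole lists. Of 12 fibroblast markers outside the members, 4 reached 1 CPM in NC, and PDPN, SFRP2 and PRRX1 had 0 counts in all 6 libraries. Their summed level was 323 to 381 CPM in NC versus 482 to 571 CPM in ASO, most of it COL1A1, a collagen chain gene (160.3 ± 20.5 and 374 ± 41.1 CPM), DPT and TWIST2. TWIST2 fell 1.59-fold and COL1A1, COL3A1 and COL6A3 rose. Of 8 endothelial markers, 2 reached 1 CPM in NC, and KDR and EMCN had 0 counts. The sum of this list went from 10.4 to 11.01 CPM in NC to 17.5 to 21.9 CPM in ASO. In edgeR 3 of the 5 tested rose (PECAM1, CLDN5 and ERG) and 0 fell. PECAM1 went from 5.72 ± 0.159 to 9.73 ± 1.04 CPM and CLDN5 from 0.399 ± 0.328 to 1.67 ± 0.385 CPM. Of 10 leukocyte markers, 1 reached 1 CPM in NC, and PTPRC, CD3E and CD3D had 0 counts in all libraries. The sum was 2.73 to 4.11 CPM in NC versus 13.5 to 15.2 CPM in ASO. In edgeR 3 of the 4 tested rose (ITGAM, CD14 and CSF1R) and 0 fell. CD14 went from 0.286 ± 0.125 to 1.14 ± 0.161 CPM and CSF1R from 1.88 ± 0.313 to 3.45 ± 0.256 CPM. Neither list had a fall at an unadjusted p under 0.05, nor by DESeq2 or limma-voom. CLDN5, ERG and CD14 passed the filter through their ASO libraries, so these counts are no measure of the lists. Summed colon epithelial markers were at 1928.6 to 2222 CPM in NC versus 1676 to 2207 CPM in ASO, of which KRT8 and KRT18 made up nearly all. In this list KRT19, LGALS4, VIL1 and MUC2 rose and 0 of the 12 genes tested fell in edgeR, with 0 falls at an unadjusted p under 0.05 and 0 by DESeq2 and limma-voom, beside 26.8% higher and 19.1% lower among all genes. These 4 genes were at or near 0 in most NC libraries and passed the filter through their ASO libraries, so they could be called in that direction alone and the count is no measure of the list. LGALS4, VIL1 and KRT19 had the largest fold changes, of which LGALS4 and VIL1 reached 18.05 ± 2.65 and 8.88 ± 6.97 CPM. The part of other cells in the changes of the members was not tested beyond these values.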

How the data were processed

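Reads of 6 libraries were processed by the authors into 1 deposited table of gene-level estimated counts. Per the submitters' processing notes FastQC, STAR, StringTie and DESeq2 were used with hg38. The sources used here do not state their settings, the annotation release or the strand setting. The deposited estimated counts are whole numbers whose lowest values pile up at 4, so 1 fragment was taken as about 4 counts and 3 fragments (12 counts per library) as the detection limit. They were used as deposited.

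Genes were tested with edgeR 4.0.16 in R 4.3.3 (robust quasi-likelihood test, TMM scaling, filterByExpr with a minimum count of 10 and total of 15), with Benjamini-Hochberg adjustment over all 14062 genes that passed. The filter removed 5593 genes. The fit was checked on simulated counts in which few genes changed, equally in both directions, unlike the changes seen here. Transcript lengths and GC content came from principal transcripts of GENCODE 29. The 17 alternatives cover scaling, filter, DESeq2 1.42.0, limma-voom (limma 3.58.1), counts divided by 4, replicate block, a GC and length offset (loess span 0.3), and leaving out each library. Within-library ratios were compared with exact permutation tests.

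Members and lists were chosen with earlier results of these data known. All 36 members are named. From each further list the text names up to 3 called genes per direction with the largest change and a mean of 1 CPM or more in a group. It also names 6 identity markers and some further genes of the marker lists. Of the genes chosen by this rule, 1 is not reported here.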

Additional observations from a re-analysis of the deposited data

How the results depend on the processing

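Of the 17 called members, 15 kept their call and direction under all 17 alternatives, the exceptions being TPM2 and DCN, and 0 changed sign. DCN lost its call with the GC and length offset (-0.60, and -0.62 with the block as well). TPM2 lost it under 7 alternatives, with values of 0.21 to 0.26. Across alternatives 8 to 10 members rose and 8 to 12 fell; leaving out 1 library gave 8 to 9 in each direction, and the CNN1 call was made by DESeq2 (adjusted p = 0.0325) and limma-voom (adjusted p = 0.0103). Over all genes, leaving out 1 library gave 1755 (without NC replicate 1) to 3199 (without ASO replicate 2) genes lower, against 2692, with 1764 without ASO replicate 3.

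Signs changed in 4 members that were not called. MYL9 was at -0.13 with the GC and length offset, with and without the block, and at -0.0019 without ASO replicate 1, the range with a library left out reaching 0.18 without ASO replicate 2. FBN1 was at 0.0088 with RLE scaling and with DESeq2, 0.016 with counts divided by 4, 0.019 without NC replicate 3, and 0.011 and 0.010 without ASO replicates 2 and 3. Its lowest value with a library left out was -0.0489, without ASO replicate 1. With the GC and length offset it was -0.0893, and the lowest over all alternatives was -0.0908. LOXL1 was at -0.31 with the offset, with and without the block, -0.05 without NC replicate 2 and -0.0896 without ASO replicate 1, up to 0.23 without NC replicate 3. With a library left out, ENG ran from -0.15 without NC replicate 2 to 0.0445 without ASO replicate 2, and with the GC and length offset it was -0.35. The cause was not tested.

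Replicate numbers are shared between groups, and same-numbered libraries correlated at 0.052, 0.188 and 0.015 in their deviations. The value for replicate 2 was the highest of all pairs. NC replicate 1 correlated about equally with ASO replicates 1 and 3 (0.0525 and 0.0518), and NC replicate 3 best with ASO replicate 1 (0.0919). The labels do not say that shared numbers mark a shared culture or day, so the main fit used no replicate block. Whether the numbers pair the libraries was not tested further. With the replicate block 7418 genes changed, against 6464, and 9 members rose and 9 fell, BGN being added (adjusted p = 0.0171). In the further lists the falls moved most. Laminin falls ran from 0 to 4 against 1, and actin falls were 8 with the block and 7 with the offset against 4. At 60 to 301 counts per control library, MMP14, LUM, DCN and FAP carry the widest counting error among members above 1 CPM.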

Other observations

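The chains of type I collagen are encoded by 2 genes outside the members. COL1A1 stood at 160.3 ± 20.5 CPM in NC versus 374 ± 41.1 CPM in ASO (SD, n = 3), a rise of 2.33-fold (edgeR adjusted p = 0.000204), whereas COL1A2 had 0, 8 and 0 counts in NC and 0 in every ASO library. These genes were picked after their values were seen.

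Single genes of the marker lists rose from near the detection limit. Over the whole deposited table, genes with any count numbered 13957, 13995 and 13934 in NC and 15452, 15665 and 15549 in ASO. Rises from near 0 were thus not particular to these lists. ITGAM, an integrin chain typical of myeloid cells, went from 0.394 ± 0.264 to 8.11 ± 1.20 CPM (edgeR adjusted p = 0.000195), while the pan-leukocyte gene PTPRC had 0 counts in all 6 libraries. LGALS4, an intestinal galectin gene, had 1 count in 1 NC library, 0 in the other two, and 18.05 ± 2.65 CPM in ASO (edgeR adjusted p = 2.43e-06). VIL1 was at 10.9, 1.121 and 14.6 CPM in the ASO libraries, with ASO replicate 2 far below the others.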
